A study of Mus musculus with 4 samples.

Results

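Sialyltransferases are the enzymes that add sialic acid to the sugar chains of proteins and lipids. Here 10 of their genes are described in female mouse neural stem cells with Smchd1 and after its deletion. Smchd1 is a chromatin protein known for its part in X inactivation and in the silencing of imprinted and clustered genes. The 10 genes were taken by name from a table of 25965 entries that holds 20 sialyltransferase genes. They were St6gal1, St6gal2, St3gal1, St3gal2, St3gal4, St3gal5, St8sia1, St8sia2, St8sia4 and St8sia5, and each had 1 row in the table. They were chosen by name with the difference in counts between deleted and control cells already known, so their values in that contrast are given as a description with no test. Cells came from E14.5 embryos that carried a deleted and a conditional Smchd1 allele (del/fl). All groups shared a maternal X of 129 origin with an Xist deltaA allele, written 129-KO in the genotype, and a paternal X from Castaneus (Cast) with wild-type Xist, on a strain background given as C57BL/6, 129 and Castaneus mix. The deleted group (del/del) was made from part of each line with a retrovirus carrying Cre recombinase and puromycin resistance, with puromycin from 24 h and harvest at 7 days after transduction, and the control group (del/fl) was the untransduced rest of the same lines. Deletion, transduction and selection therefore cannot be told apart. There were 4 libraries, 1 control and 1 deleted library from each of 2 lines, called A and B.

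A sialyltransferase moves sialic acid from its activated donor, CMP-sialic acid, onto the end of a sugar chain in the Golgi. The gene name tells which bond is made: St6gal enzymes link sialic acid to the sixth carbon of galactose, St3gal enzymes to the third carbon of galactose, and St8sia enzymes to the eighth carbon of a sialic acid that is already there. In the nervous system the products include gangliosides, which are sialylated membrane lipids, and polysialic acid, a long chain carried mostly by the adhesion molecule NCAM. Neural stem cells are known for the ganglioside GD3.

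Total counts per library ran from 29873400 to 34018500. Smchd1 itself fell with the deletion, from 93.5 and 102 CPM to 23.4 and 26.6 CPM, the counts as parts of the library total (log2 fold change −1.96, SE 0.07, edgeR adjusted p = 0.0194). The counting method is not stated, so RNA without the deleted part may be included. These counts cannot tell such RNA apart from RNA of cells that kept the conditional allele. Neural stem cell markers were present in every library, with Sox2 at 7843 to 10507 counts. Of 8 microglial markers, Cx3cr1, Tmem119 and Tyrobp were at 0 in all 4 libraries, while Csf1r (251 to 304 counts), Cd68 (120 to 266) and P2ry12 (48 to 96) were read in each and not called. Astrocyte markers moved with the deletion: 6 of 8 tested rose, and their summed level was 1738 and 1886 CPM in controls against 3231 and 3370 after deletion, with none at 0. Of 7 tested neuronal markers 1 fell, Syt1, and their sum was 185 and 124 CPM in controls and 82.3 and 116 in deleted cells. Without Syt1, the neuronal sum was higher after deletion in each line, at 14.4 against 20.9 CPM in A and 51.9 against 90.5 CPM in B, most of it Gad1 in line B (39.1 and 75.7 CPM, edgeR adjusted p over both lines = 0.0531). The 10 interferon-response markers summed to 68.9 CPM in control A, 44.2 in control B, 356 in deleted A, but 57.9 in deleted B. The part of these differences in the values below was not tested. In bulk RNA, fewer cells of a type and less RNA per cell cannot be told apart.

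Among enzymes of the sixth-carbon linkage, St6gal2 was far higher in deleted cells while St6gal1 was nearly level. St6gal2 encodes the St6gal enzyme known mainly from brain (chromosome 17, 55445382 to 55514581, mm10). It had 11 counts in control A, 44 in control B, 228 in deleted A and 275 in deleted B. Scaled to library size by the TMM method of edgeR, these were 0.370 and 1.29 CPM in controls against 6.81 and 8.60 CPM in deleted cells. Both deleted libraries were thus above both controls. The fitted log2 fold change, with line as a term, was 3.29 (SE 0.38), or 9.75-fold. Within lines the CPM ratio was 18.4-fold in line A and 6.66-fold in line B, where the line A value rests on a control count of 11. St6gal1, the broadly expressed enzyme that caps N-glycans of secreted and membrane proteins (chromosome 16, 23224740 to 23360350), had 32.0 and 29.9 CPM in controls and 29.6 and 28.4 CPM in deleted cells. Its deleted libraries both lay just under its controls, and its log2 fold change was −0.09 (SE 0.09).

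The promoter of St6gal2 is shown because this gene carries the largest difference in the set, and that of St8sia1 because it is the member that differed between the lines, as described further on. Each is the 250 bases before the annotated start in RefSeq (GRCm38.p6, the same assembly as mm10), read 5′ to 3′ on the strand of the gene, with capitals marking CG dinucleotides. St6gal2 lies at chr17:55445132-55445381 on the plus strand and St8sia1 at chr6:142964453-142964702 on the minus strand.
St6gal2: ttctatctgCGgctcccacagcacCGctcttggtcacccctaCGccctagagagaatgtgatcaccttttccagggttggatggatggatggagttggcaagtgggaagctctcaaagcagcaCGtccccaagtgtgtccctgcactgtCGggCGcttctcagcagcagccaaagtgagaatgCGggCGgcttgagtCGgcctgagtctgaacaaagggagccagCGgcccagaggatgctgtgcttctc
St8sia1: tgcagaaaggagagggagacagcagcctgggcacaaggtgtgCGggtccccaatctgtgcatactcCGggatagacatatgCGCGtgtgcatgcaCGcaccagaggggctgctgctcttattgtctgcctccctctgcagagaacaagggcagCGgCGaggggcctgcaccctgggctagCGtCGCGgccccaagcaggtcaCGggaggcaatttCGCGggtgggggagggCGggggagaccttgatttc
The St6gal2 window held 10 CG dinucleotides, a number reached by 37.8% of all 32851 promoters of that length in the same source, and the St8sia1 window held 14, reached by 29.4%. RefSeq windows were found for 7 of the 10 members, 9 windows in all. Searched on both strands, the letters GGGCGG (the GC box) occurred once in the St6gal2 window and once in that of St8sia1, and 32.7% of all promoters held them. TATAAA (the TATA box) was in none of the 9 windows and in 12.4% of all promoters. CCAAT was absent from the St6gal2 window, occurred once in that of St8sia1, and was in 33.8% of all promoters. The GC box letters overlap a CG dinucleotide by their own composition. The data hold no measure of binding or methylation at these windows.

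**Figure D1:**
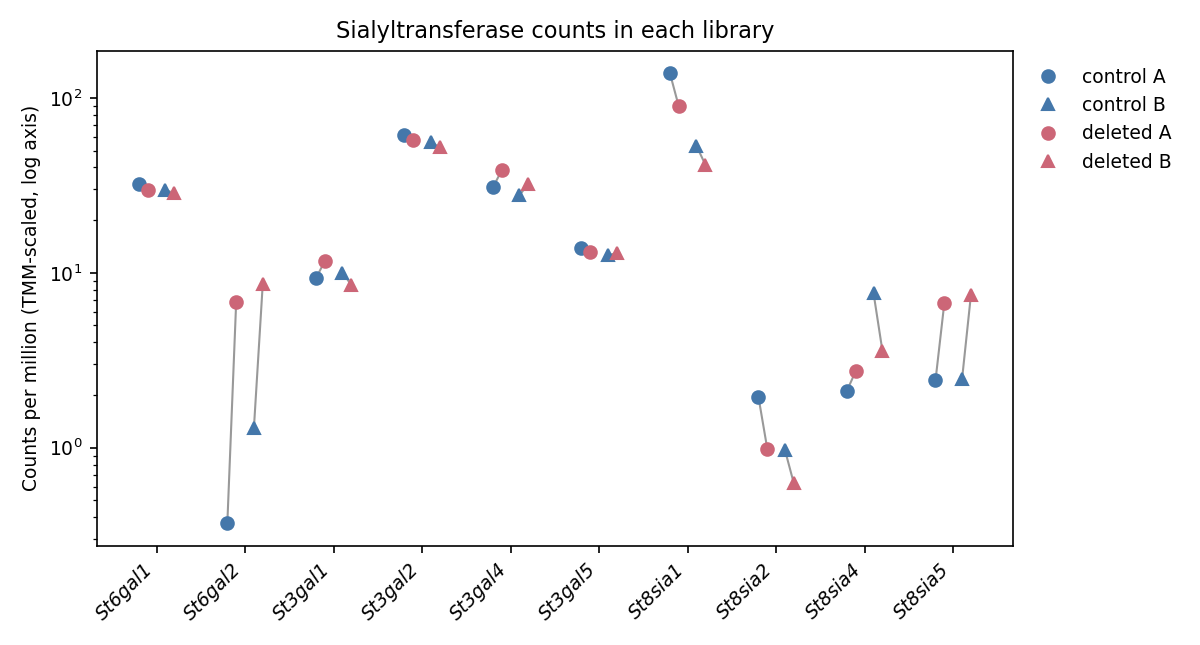
CPM (TMM-scaled, log axis) of the 10 sialyltransferase genes in each of 4 libraries. Circles are line A, triangles line B, blue control and red deleted cells, and grey lines join the 2 libraries of a line. St6gal2 runs from 0.370 and 1.29 in controls to 6.81 and 8.60 in deleted cells, and St8sia5 from 2.42 and 2.46 to 6.72 and 7.44.

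Enzymes of the third-carbon linkage differed little between the groups. St3gal4, which caps galactose on N-glycans of glycoproteins (chromosome 9, 35046579 to 35116810), had 30.8 and 27.7 CPM in controls and 38.5 and 32.4 CPM in deleted cells. Both deleted libraries lay above both controls, with a log2 fold change of 0.28 (SE 0.09), 1.21-fold. St3gal2, which sialylates O-glycans and gangliosides and is a main enzyme for brain gangliosides (chromosome 8, 110919922 to 110972480), had 61.1 and 55.7 CPM in controls and 57.7 and 52.2 CPM in deleted cells. Its groups overlapped, although each deleted library was slightly under the control of its own line (log2 fold change −0.09, SE 0.07). St3gal5 makes GM3, the first ganglioside of the pathway and the precursor of the more complex ones (chromosome 6, 72097613 to 72154570). It had 13.9 and 12.6 CPM in controls and 13.1 and 12.9 CPM in deleted cells, and both deleted values lay between the controls (log2 fold change −0.03, SE 0.12). St3gal1 acts on the core of O-glycans (chromosome 15, 67102875 to 67113992 in the table, where the annotated gene runs on to 67176830). It had 9.29 and 10.03 CPM in controls and 11.6 and 8.53 CPM in deleted cells, so the groups overlapped and the lines went in opposite directions, with log2 ratios of 0.32 in A and −0.23 in B.

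Enzymes of the eighth-carbon linkage showed the widest mix of differences. St8sia5, which adds further sialic acids to gangliosides and is known mainly from brain (chromosome 18, 77185853 to 77255450), had 72 counts in control A against 225 in deleted A, and 84 in control B against 238 in deleted B. These were 2.42 and 2.46 CPM against 6.72 and 7.44 CPM, with replicates close together and the groups well apart. The log2 fold change was 1.53 (SE 0.19), 2.89-fold, and the ratios within lines were 2.77-fold in A and 3.02-fold in B. St8sia1, the GD3 synthase (chromosome 6, 142821545 to 142964452), went the other way within each line. It had 138 CPM in control A and 89.4 in deleted A, and 53.2 in control B and 41.5 in deleted B. The groups overlapped, because line A was higher than line B in both of them, while each deleted library was under the control of its line (log2 fold change −0.50, SE 0.09, with 0.646-fold in A and 0.780-fold in B). In fits without the term for line, this value ran from −1.21 without deleted A to 0.29 without control A.

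St8sia2 and St8sia4 are the polysialyltransferases that build polysialic acid on NCAM, the former known mainly from the embryonic brain. St8sia2 (chromosome 7, 73939119 to 74013682) was barely read, with 58 counts in control A, 33 in control B, 33 in deleted A and 20 in deleted B. In each line the deleted library was lower, while the groups overlapped (log2 fold change −0.83, SE 0.29). St8sia4 (chromosome 1, 95587684 to 95667594) had 2.12 CPM in control A, 7.66 in control B, 2.75 in deleted A and 3.59 in deleted B. Control B stood above the other 3 libraries, and the lines disagreed in direction, at 1.30-fold in A and 0.469-fold in B. Its fitted log2 fold change of −0.43 (SE 0.39) is an average of opposite values, and without control B, in a fit without line, it was 0.58.

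**Figure D2:**
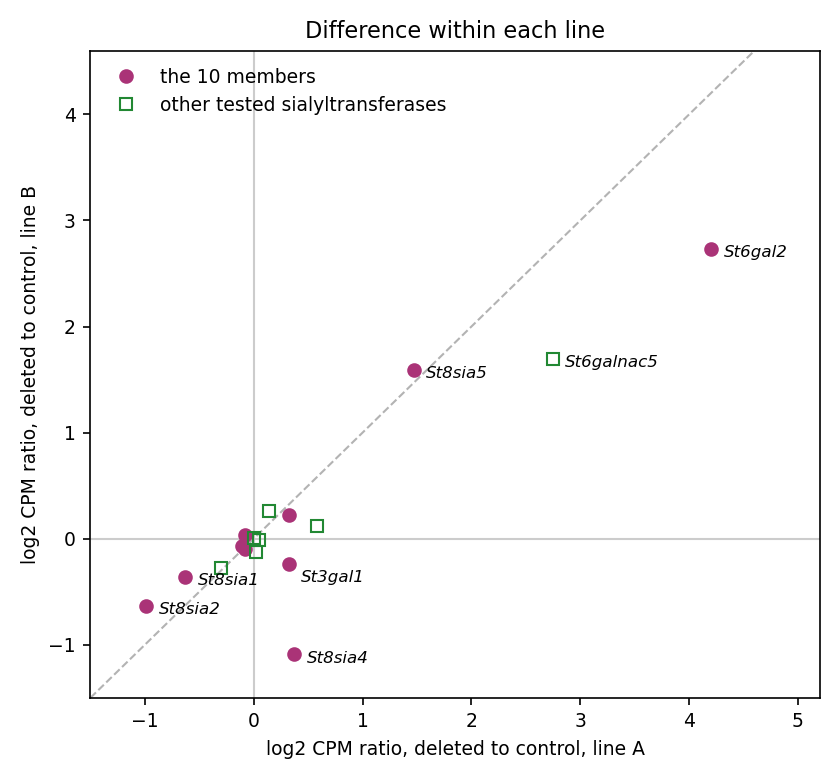
Log2 ratio of deleted to control CPM in line A (horizontal axis) against line B (vertical axis), with the dashed line marking equal ratios. Filled circles are the 10 members and open squares the other tested sialyltransferases. St6gal2 (4.20 in A, 2.74 in B), St8sia5 (1.47, 1.59) and St6galnac5 (2.75, 1.70) lie far up and right, and St8sia4 (0.37, −1.09) falls below the axis.

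All 10 members passed the filter on low counts. No member is called higher or lower here, because this contrast was known when they were chosen. Of all 14860 tested genes, 3.71% were called higher in deleted cells and 1.89% lower with line as a block, while with group as its only term edgeR called 0 of them (1737 at an unadjusted p under 0.05). Deleted libraries lay wholly above controls for 3 members (St6gal2, St3gal4 and St8sia5) and wholly below for 1 (St6gal1), beside 22.9% and 22.8% of all tested genes, and nothing is read from these shares. By line, 3 members had the higher value in deleted cells in both lines, 4 had the lower value in both, and 3 went in opposite directions. The median log2 fold change was −0.06 over the 10 members and 0.01 over all tested genes.

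The difference between the lines did not enter the choice of members and was tested. St8sia1, the GD3 synthase gene, was 2.37-fold higher in line A than in line B (log2 difference, B minus A, −1.24, SE 0.09, edgeR adjusted p = 0.00863 with group as a block). Its mean level was 114 CPM in line A and 47.4 CPM in line B, and both libraries of line A were above both of line B. It was the only member called between the lines in this fit, 1 of 10, where 6.63% of all tested genes were called higher in A and 3.51% higher in B. A share that rests on 1 gene is near that background. The call was lost without the group term (edgeR adjusted p = 0.207). It was also lost in each fit that left out 1 library, and these fits had no group term either. The direction was the same in all of these, with log2 differences from −1.55 to −0.91 when 1 library was left out. With the group term, the call was kept by DESeq2 (adjusted p = 1.1e-15), and by edgeR with RLE scaling (adjusted p = 0.00769) or no filter (adjusted p = 0.000828). The polysialyltransferase genes had differences of similar size in opposite directions that were not called: St8sia4 was at 1.12 (SE 0.39, edgeR adjusted p = 0.137), toward line B, and St8sia2 at −0.85 (SE 0.29, edgeR adjusted p = 0.135), toward line A. St6gal2 had a difference of 0.76 (SE 0.36, edgeR adjusted p = 0.233). The other 6 members had adjusted p values from 0.196 to 0.773. The libraries of the lines did not overlap for 5 members. Line A was higher for St8sia1, St8sia2, St3gal2 and St3gal5 and line B for St8sia4, beside 22.4% and 22.1% of all tested genes. Some cell type markers also differed between the lines (edgeR adjusted p in brackets). Toward B were Gad1 (log2 difference 3.54, 0.00863), Dcx (1.49, 0.0404) and Snap25 (1.39, 0.0368) of the neuronal markers. So were Pdgfra (2.37, 0.00308), Sox10 (2.37, 0.0122) and Fabp7 (0.54, 0.0252). Toward A were the neuronal markers Syt1 (−1.24, 0.00571), Stmn2 (−1.95, 0.0388) and Rbfox3 (−2.18, 0.0473), so the neuronal list was split. Aldh1l1 (−1.22, 0.00767), S100b (−1.83, 0.0273) and Cd68 (−0.94, 0.0453) were toward A too. Olig2 (−0.13, 0.39) and Gfap (0.04, 0.917) were not called. Their part in the St8sia1 difference was not tested.

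Levels can be compared between genes only per length, here as RPKM, which is TMM-scaled CPM per kilobase of annotated exon. In control cells 3 genes led, with St3gal2 at 11.6 ± 0.758 RPKM (SD, n = 2), St8sia1 at 10.2 ± 6.44 and St3gal4 at 9.996 ± 0.749, and neighbours among these did not differ beyond their spread. St8sia1 led only in control A, at 14.8 RPKM, and at 5.70 RPKM in control B it was below St6gal1 (6.08 in that library). St6gal1 followed at 6.29 ± 0.303, St3gal5 at 5.06 ± 0.330 and St3gal1 at 1.41 ± 0.0768, each apart from the next. The remaining 4 were low: St8sia5 was at 0.450 ± 0.00535 RPKM, apart from the genes beside it in this order, while St8sia2 (0.271 ± 0.129) overlapped St8sia4 (0.243 ± 0.195), which overlapped St6gal2 (0.113 ± 0.0883). The makers of GM3 and GD3 and the general St3gal and St6gal enzymes were thus read well above both polysialyltransferase genes. In deleted cells the order was led by St3gal4 at 12.1 ± 1.49, which overlapped St3gal2 at 10.9 ± 0.767. St8sia5 reached 1.30 ± 0.0937 RPKM there and overlapped St3gal1 (1.47 ± 0.318). St6gal2 went from the lowest of the 10 in controls to the eighth, at 1.04 ± 0.171 RPKM, and lay apart from both of its neighbours in that order. For St8sia5 the table's interval ends before the annotated gene does, and with exons limited to that interval its level was 1.17 RPKM in controls and 3.38 RPKM in deleted cells, where it then passed St3gal1 (1.72 RPKM). With the longest transcript as the length, St8sia4 was at 0.488 RPKM in controls, above St8sia5, and St3gal4 (13.9 RPKM) passed St3gal2 (13.3 RPKM).

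**Figure D3:**
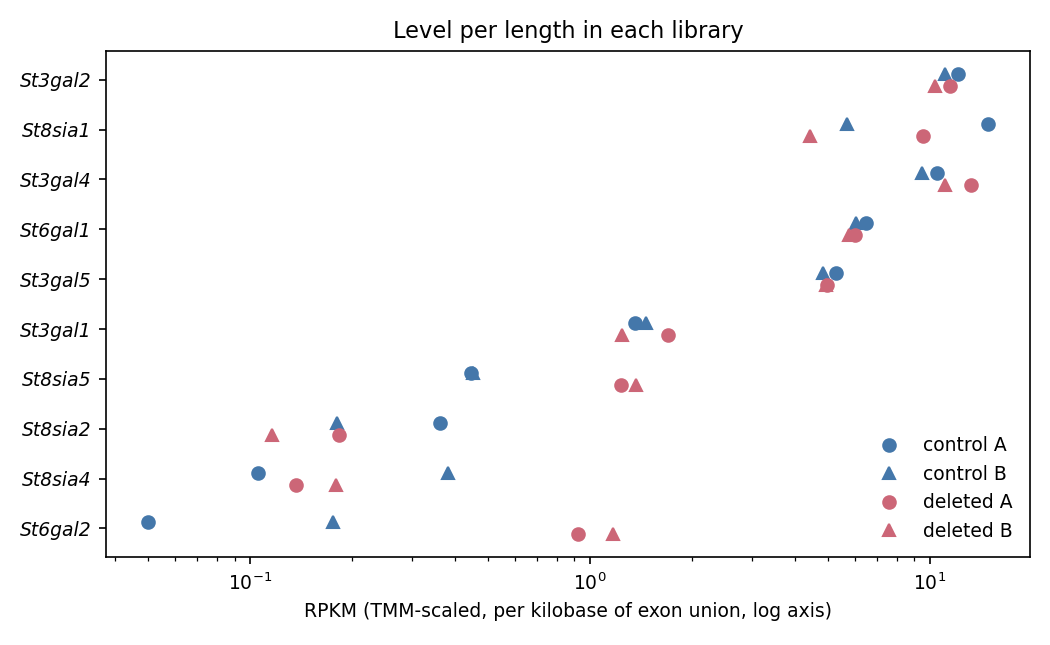
RPKM (TMM-scaled, per kilobase of exon union, log axis) of each member in each library, ordered by the control mean. Circles are line A and triangles line B, with controls in blue and deleted cells in red. St6gal2 is lowest in controls (0.113 on average) and at 1.04 on average in deleted cells, and St8sia1 is spread by line.

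Of the other 10 sialyltransferase genes in the table, 7 were tested, and 1 rose and 0 fell. St6galnac5, which adds sialic acid to an inner sugar of gangliosides and is known mainly from brain, had 11.1 and 14.4 CPM in controls and 74.3 and 46.7 CPM in deleted cells. Both deleted libraries were above both controls (log2 fold change 2.21, SE 0.26, edgeR adjusted p = 0.0266, 4.64-fold). The list had a median log2 fold change of 0.02, near the 0.01 of all tested genes, so the rise of St6galnac5 was not that of its list. St6galnac1, St8sia3 and St8sia6 were too low to test, at 0 to 13 counts per library.

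Genes that make, carry and remove sialic acid were mostly not called. An unadjusted p under 0.05 in edgeR was found for 12 of the 46 tested, beside 4572 of all 14860 tested genes. Of 46 tested genes in 6 lists, the other sialyltransferases included, 4 rose and 0 fell, where 3.71% and 1.89% of all tested genes did so. Among 10 tested genes of sialic acid synthesis and transport, Slc17a5, the lysosomal sialic acid exporter, rose from 21.5 and 22.6 CPM to 38.8 and 35.1 CPM (log2 fold change 0.74, SE 0.10, edgeR adjusted p = 0.0335). The other 9 were not called, and the list median was 0.08. Among these 9, Siae went from 25.8 CPM in both controls to 63.9 and 35.2 CPM (log2 fold change 0.88, SE 0.21, edgeR adjusted p = 0.0759). Cmas was lower in deleted cells of each line (log2 fold change −0.29, SE 0.07, edgeR adjusted p = 0.08). Of 9 tested genes of ganglioside synthesis and breakdown, 2 of the breakdown side rose. Gm2a, the activator protein that presents ganglioside GM2 to its hydrolase, went from 42.2 CPM in both controls to 127 and 80.9 (log2 fold change 1.26, SE 0.16, edgeR adjusted p = 0.0321). Hexa, which encodes the alpha subunit of that hydrolase, went from 83.9 and 83.1 CPM to 157 and 114 (0.68, SE 0.12, edgeR adjusted p = 0.0487). For all 4 rises the ratio was larger in line A than in line B, where the log2 ratios were 1.70 for St6galnac5, 0.63 for Slc17a5, 0.94 for Gm2a and 0.46 for Hexa. The ganglioside list had a median of 0.24, and the 7 genes not called were 3 above 0 and 4 below.

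The remaining lists held no call. Of 4 tested sialidases and partners, Ctsa, the protective protein of lysosomal sialidase, was at 0.25 (edgeR adjusted p = 0.145) and Glb1, the lysosomal beta-galactosidase, at 0.17 (edgeR adjusted p = 0.211). The carriers of polysialic acid were 3, with the NCAM gene Ncam1 at −0.19 (edgeR adjusted p = 0.169) and Cadm1 at 0.13 (edgeR adjusted p = 0.408). None of 13 tested genes for building the galactose-bearing acceptor chains was called, among them B4galt2 (−0.01, edgeR adjusted p = 0.969) and Mgat2 (0.00, edgeR adjusted p = 0.978), with a list median of −0.01. Of the sialic acid-binding lectins 8 were in the table, none could be tested, and 6 of them had no count in any library. With group as its only term, edgeR called 0 of the 46 genes. In that fit 7 had an unadjusted p under 0.05, beside 1737 of all 14860 tested genes. There the smallest edgeR adjusted p among the 4 rises was 0.341, for St6galnac5. DESeq2 with line as a block called 6 of the 46 higher, beside 769 of all 14860 tested genes.

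**Figure D4:**
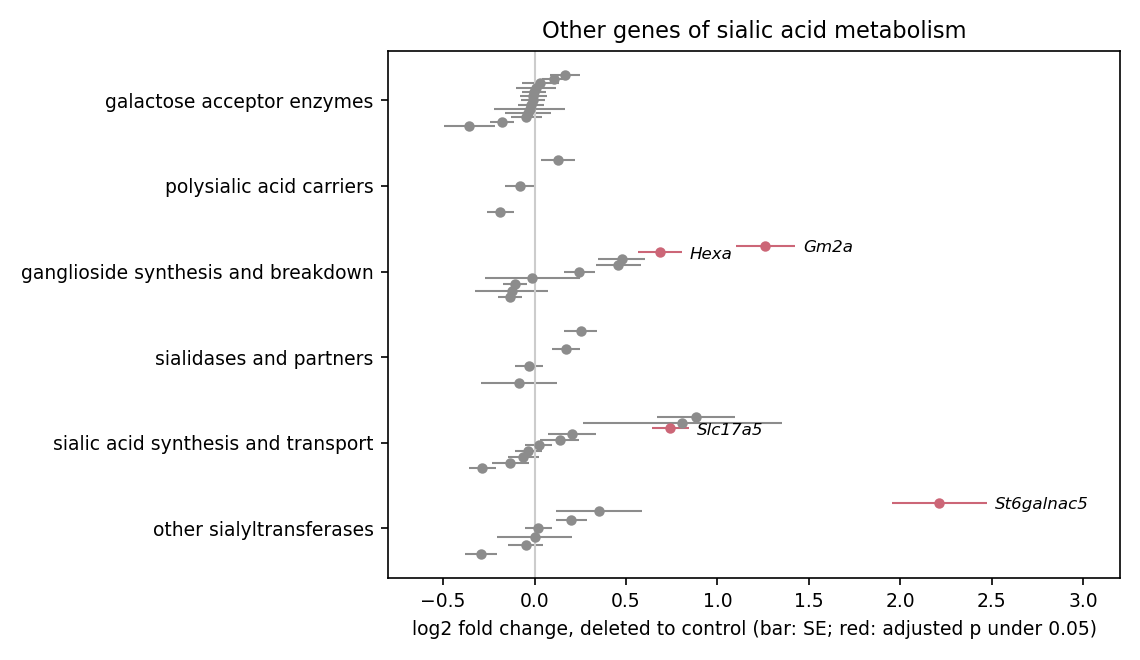
Fitted log2 fold change, deleted to control, of the 46 tested genes in 6 lists of sialic acid metabolism that are no members, with bars for the standard error. Red points have an edgeR adjusted p under 0.05: St6galnac5 (2.21), Gm2a (1.26), Slc17a5 (0.74) and Hexa (0.68).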

How the data were processed

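The deposited table gives raw counts per gene, as whole numbers, for 4 libraries. Per the submitters' processing notes, mm10 was the build, and bcl2fastq, TopHat2 2.0.12 and edgeR are listed. The counting method and its use of strand are not stated there, so reads of overlapping genes cannot be told apart. Exons of 4 members (St8sia1, St3gal4, St6gal1 and St8sia5) overlap another annotated gene. A further 8 columns of counts by parental genome were not used here, so the planned shares by parental genome were not computed. Their names, like those of the 4 columns used, tie a library to its group but not to a sample title. Column names also hold a number shared between groups, read as the line (A the lower, B the higher). Per the labels' protocols each line was divided between the groups, so line is a block in the main fit. Libraries of a line also deviated together from their group means, with r = 0.72 across 14860 genes, which are not independent replicates. With 2 libraries per group, p-values cover only the spread between these cultures.

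Genes were tested with edgeR 4.0.16 in R 4.3.3 (quasi-likelihood, TMM, filterByExpr, Benjamini-Hochberg threshold 0.05 over all tested genes), and the fits were tested on simulated data. Members and lists were chosen with earlier results of these data known. The text names all 10 members, Smchd1 and, of each pathway list with a tested gene, the called genes or, if none, the 2 with the highest mean count. The list of sialic acid-binding lectins had no tested gene, and none of its genes is named. Siae, Cmas, marker genes, and genes too low to test, were named after their values were seen. RPKM used GENCODE M21 exons. Alternatives were no block, DESeq2 1.42.0, RLE scaling, no filter, leaving out each library and other gene lengths.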

Additional observations from a re-analysis of the deposited data

Results flagged for a closer look

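3 members had log2 ratios of opposite sign in the lines, each line with 1 deleted and 1 control library. The difference of these ratios between the lines was not tested. For St8sia4 the log2 ratio of deleted to control CPM was 0.37 in A but −1.09 in B. For St3gal1 the ratios were 0.32 and −0.23. For St3gal5 they were −0.084 and 0.033, both smaller in size than the SE of its fitted log2 fold change (0.12).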

How the results depend on the processing

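With line as a block, edgeR called 832 genes between deleted and control cells, DESeq2 1190 and RLE scaling 908, while without the low-count filter 1802 were called over more genes. With no replicate block edgeR called 0 genes (1737 at an unadjusted p under 0.05) and 0 pathway genes (7 unadjusted). Leaving out each library, also without the block because 3 libraries leave no residual degree of freedom with it, gave 0 to 0 genes (644 to 1982 unadjusted) and 0 to 0 pathway genes (3 to 9 unadjusted). Between the lines edgeR called 1506 genes, 8 with no group block, and 0 to 176 when each library was left out. The cause of these losses was not tested. Of 80 alternative fold changes of members, 59 differed from the main value by less than the SD of the 2 within-line log2 ratios, and 21 moved further. The sign was kept in 76 of the 80. The exceptions were St8sia1 (0.29) and St3gal5 (0.04) without control A, St8sia4 (0.58) without control B and St3gal1 (−0.18) without deleted A. St6gal2 ran from 2.57 to 4.36 and St8sia5 from 1.44 to 1.60. Allele-count minimums were not run. Low counts limit St8sia2 and, in controls, St6gal2.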
